A study of Mus musculus with 28 samples.

Results

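RNA polymerase II (Pol2) was mapped by ChIP-seq on 4 of the 28 samples of a mouse study of skin stem cell ageing, 2 samples from animals 24 months old (old) and 2 from animals 6 months old (young), ages that the series' design text gives together with the statement that the samples are biological replicates. All 6789 Pol2 peaks of the authors' deposited table are described here, of 96164 regions in the ChIP-seq tables for Pol2, H3K4me3 and H3K27me3. The cells were hair follicle stem cells, freshly sorted from trypsin-treated epidermis by flow cytometry for CD34 and α6 integrin. The strain is labelled 132-C67BL/6J, and the labels name no allele, transgene or treatment. Immunoprecipitated chromatin was tagmented on the beads (ChIPmentation), with chromatin concentrations set equal before the immunoprecipitation, per the labels' protocols.

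Pol2 is the enzyme that transcribes protein-coding genes. It is recruited to gene starts by the general transcription factors, often pauses shortly downstream, and is then released into the gene body, so that a ChIP-seq peak over a start mostly holds recruited and paused enzyme and signal farther along a gene mostly holds elongating enzyme. Hair follicle stem cells rest in the bulge for most of the hair cycle and are known for transcription factors such as SOX9, LHX2 and NFATC1. H3K4me3 marks active and poised promoters, H3K27me3 is laid down by Polycomb, and promoters with both are called bivalent. The series title links ageing of these cells to a stiffer niche and less accessible bivalent promoters.

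The table gives, for each peak, 1 level per age: the log2 of the mean normalised read count over the 2 samples. Values per sample are not part of it, so no SD can be given, and replicate spread enters only through the false discovery rate (FDR) of the authors' deposited table. A peak is said to be called lower or higher in old cells where that FDR was under 0.05. The change of a peak is its old level minus its young level, on the log2 scale. Depth per sample is unknown, and in bulk samples fewer cells with Pol2 at a gene and less Pol2 per cell cannot be told apart.

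Pol2 was lower in old cells at most peaks. The median peak had a change of −1.72, a 3.29-fold lower level, with quartiles of −2.46 and −0.72. Of all peaks, 3589 (52.9%) were called lower and 3 (0.0442%) higher by the FDR of the authors' deposited table. Those 3, named because they are so few, were weak and lay away from gene starts: a distal peak nearest Gpm6a (level 5.67 in old and 2.76 in young cells), an intron peak assigned to Gm13161 (6.26 in old and 2.29 in young) and an intron peak of Itih5 (3.93 in old and the table's lowest level in young). The results below ask which genes changed by more or by less than this median, and a change written as relative to the median peak has −1.72 subtracted.

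**Figure D1:**
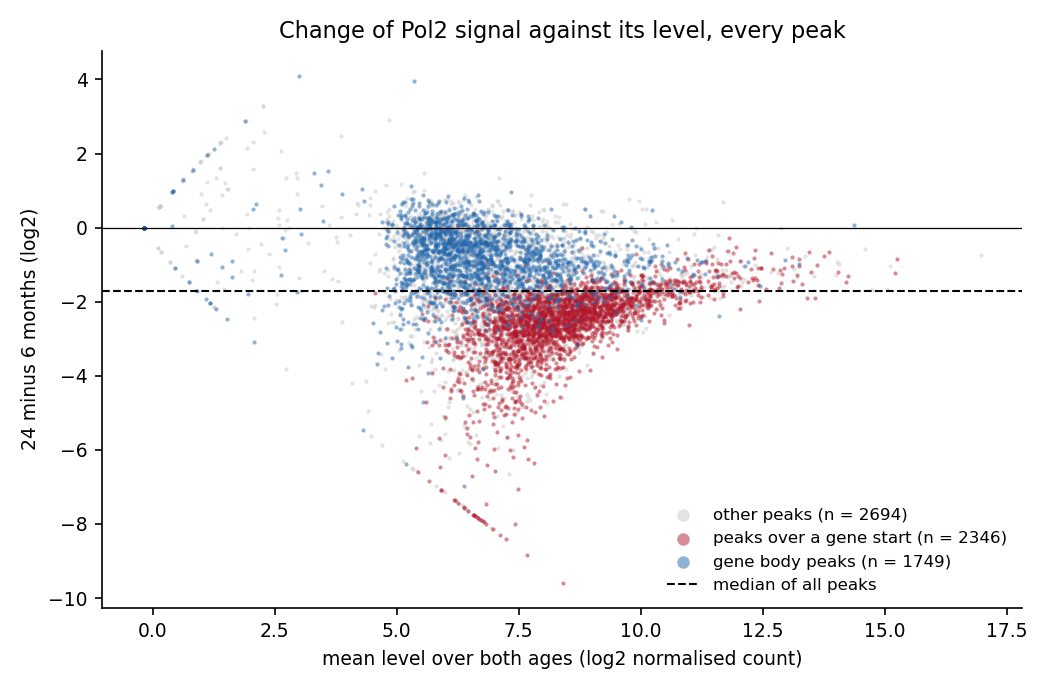
Change of Pol2 signal (24 minus 6 months, log2) against the mean level over both ages (log2 normalised count) for all 6789 peaks; the dashed line is the median, −1.72. Peaks over a gene start (red, n = 2346) lie mostly below the line and gene body peaks (blue, n = 1749) mostly above it; the straight diagonal edges are peaks in which 1 age is at the table's lowest level.

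Among the cell markers examined, all 9 of the follicle stem cell set (Cd34, Itga6, Krt15, Sox9, Lhx2, Nfatc1, Krt5, Krt14 and Col17a1) had a promoter peak, meaning a peak annotated within 1 kb of a transcription start. None of the 5 immune, 5 fibroblast, 3 endothelial, 2 smooth muscle, 4 interfollicular or 3 sebaceous markers had any Pol2 peak. Of 4 melanocyte markers Mitf and Tyr had peaks outside promoters. Some peaks carry little information. In 124 peaks both ages were at the lowest level, 47 of them on chromosome Y or unplaced contigs, and 73 peaks were at the lowest level in old cells alone. The lowest level is no measured count, so no fold is given for these peaks. The highest level of the table, 16.55 in old and 17.28 in young cells, was at chr2:98666245-98667320, a peak assigned to the predicted gene Gm10800. The mitochondrial genome was covered by 1 peak with a level of 13.65 in old and 15.34 in young cells, a change of −1.69 (FDR 0.728 in the authors' deposited table).

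The change differed by position along the gene. The 2346 peaks that hold the RefSeq start of the gene they are annotated to had a median change of −2.42, with quartiles of −2.93 and −1.98, and 2106 (89.8%) were called lower in the authors' deposited table. The 1749 peaks in introns, exons or untranslated regions that hold no start had a median change of −0.86, with quartiles of −1.37 and −0.30, and 280 were called lower. By annotation, the 3743 promoter peaks had a median change of −2.28 with 2961 (79.1%) called lower, the 1320 intron peaks −0.82 with 218 (16.5%), the 256 exon peaks −1.02 with 41, the 170 peaks in 3′ UTRs −0.72 with 25 (14.7%) and the 703 distal peaks −1.09 with 234 (33.3%).

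The classes also differed in level. The gene body peaks were weaker, with a median level of 6.51 against 8.22 for the start peaks. At like level the gap was wider among weak peaks: between levels 7 and 8 the median change was −2.80 for 715 start peaks and −0.93 for 331 gene body peaks, and between levels 9 and 10 it was −2.12 for 377 start peaks and −1.08 for 77 gene body peaks. Between levels 8 and 9 it was −2.42 for 723 start peaks and −1.06 for 165 gene body peaks. Within the start peaks the change shrank with level, with a median of −3.02 in the weakest quintile and −1.79 in the strongest quintile. Among gene body peaks it went the other way, from −0.62 between levels 5 and 6 to −1.08 between levels 9 and 10.

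**Figure D2:**
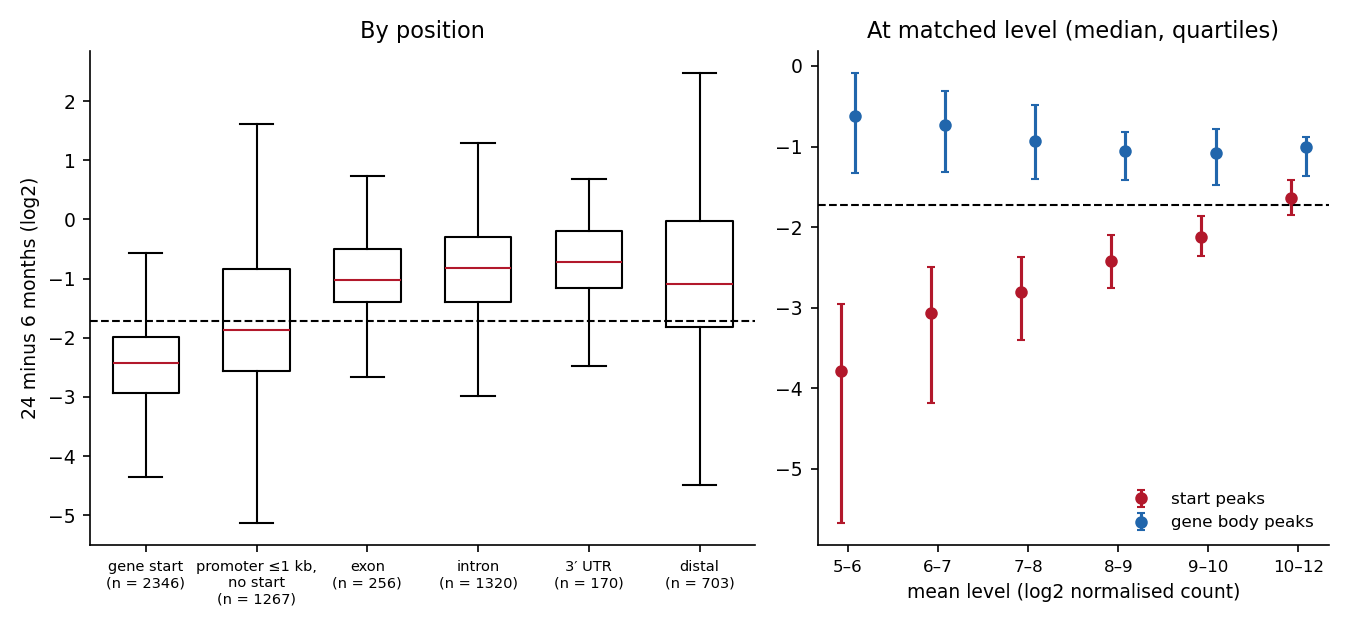
Left, change of Pol2 signal (24 minus 6 months, log2) by peak position, as boxes of the median and quartiles with whiskers to the farthest peak within 1.5 interquartile ranges; right, median and quartiles for start peaks (red) and gene body peaks (blue) in bins of mean level (log2 normalised count). The dashed line is the median of all peaks, −1.72; start peaks lie at or below −1.64 in every bin and gene body peaks at or above −1.08.

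The same gap was present inside single genes. Of 190 genes with both a start peak and gene body peaks above the lowest level, the body changed by less than the start in 180 (94.7%), and the median difference was 1.35 (quartiles 0.76 and 1.87). The median change in these genes was −0.57 in the body and −1.88 at the start. Among the 39 genes with 5 or more body peaks, 38 showed it. The body peaks of these 190 genes were weaker than their start peaks, with median levels of 6.48 and 9.77. In the 16 genes where both levels lay within 1 log2 unit of each other, 13 showed it, with a median difference of 0.90. This comparison was added after the values were seen and has no test, since the table has no values per sample.

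Peak by peak, the genes looked as follows; Rbm39, Tra2a, Srrm2 and Stat3 were chosen after their values were seen. Rbm39 encodes an RNA-binding splicing regulator. Its start peak had a level of 10.25 in old and 11.57 in young cells, a change of −1.32. That peak was not called (FDR 0.0813 in the authors' deposited table). The 18 peaks between 5.3 and 25.379 kb downstream had changes from −0.24 to 0.62. At Tra2a, a splicing activator gene, the start peak stood at 8.91 in old and 10.83 in young cells, with an FDR of 0.0116 in the authors' deposited table. Its widest downstream peak, from 16.025 to 20.989 kb, stood at 9.67 in old and 9.52 in young cells. Old and young levels in that stretch of Tra2a thus lay within 0.15 of each other while the start differed by 1.92. For Srrm2, which encodes a large scaffold protein of the spliceosome, the start peak was 9.24 in old and 10.54 in young cells. It was not called either (FDR 0.094 in the authors' deposited table). The next peak of Srrm2, from 3.42 kb, was 8.94 in old and 9.02 in young cells. Its widest peak, from 10.49 to 19.332 kb, changed by −0.75, between the start and the flanking peaks. Stat3, a transcription factor of cytokine signalling, had a start peak of 9.08 in old and 10.76 in young cells (FDR 0.028 in the authors' deposited table), and its peak from 6.356 kb had 8.78 in old and 8.92 in young cells. Its last peak, from 48.231 kb, went against this, with 4.32 in old and 6.47 in young cells (FDR 0.0189 in the authors' deposited table).

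**Figure D3:**
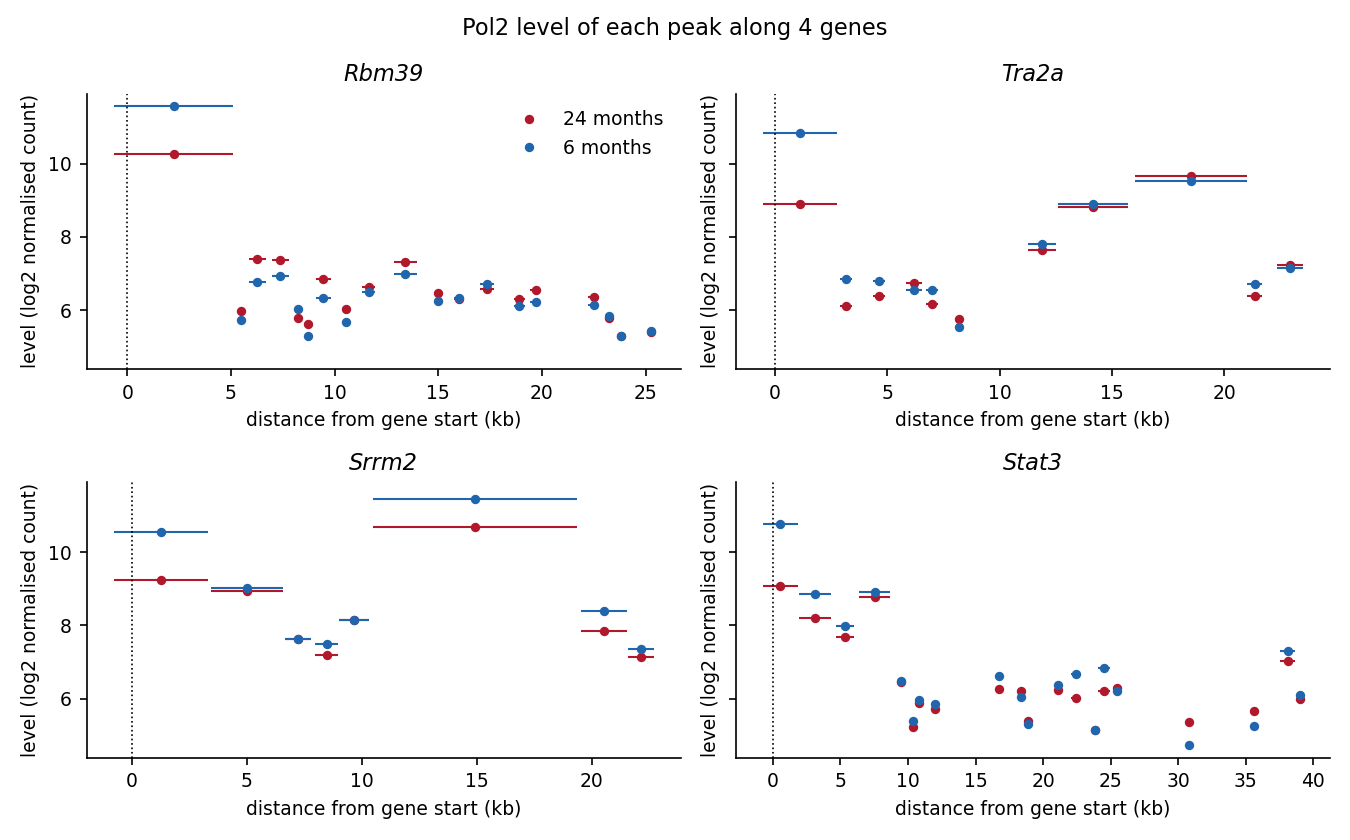
Level of each Pol2 peak (log2 normalised count) at 24 months (red) and 6 months (blue) against distance from the gene start (kb, dotted line at 0) for Rbm39, Tra2a, Srrm2 and Stat3; horizontal bars give each peak's extent, and peaks beyond 45 kb are left out. Among the peaks shown, the 2 ages are farthest apart at the start of each gene (−1.32, −1.92, −1.30 and −1.68), and the widest downstream peak of Srrm2 is also lower at 24 months (−0.75).

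Other genes with at least 5 body peaks gave the same picture. Top1, the topoisomerase that relieves supercoils ahead of the polymerase, had a start peak of 8.61 in old and 10.56 in young cells and 10 body peaks whose mean change was 0.15. The start peak of Sf3b1, a core subunit of the U2 snRNP, was 9.35 in old and 11.18 in young cells, and its 8 body peaks averaged 0.05. For Pdlim5, which encodes an actin-associated scaffold, the start changed by −1.85 and 16 body peaks averaged 0.19. Kank1, a gene for a protein at the rim of focal adhesions, had the most body peaks, 47, and they did fall: 11 were called lower in the authors' deposited table and their mean change was −1.20, against −2.66 at the start. The exception was Nfix, a stem cell transcription factor gene, whose 5 body peaks were all called lower in the authors' deposited table, with a mean change of −1.90 against −1.66 at the start.

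Promoter peaks that ran over much of a transcript changed less than those confined to its start. The 2004 promoter peaks covering under 0.05 of the annotated transcript had a median change of −2.50, and the 336 covering 0.80 or more had −1.47. Restricted to transcripts of 10 kb or longer, the 2128 peaks covering under 0.10 had −2.52 and the 24 covering 0.50 or more had −1.06. Level moved with coverage: the median level was 7.92 in the first of these long-transcript classes and 12.96 in the second. Among transcripts under 10 kb the gap was smaller. There the 421 peaks covering under 0.10 had −1.83 and the 437 covering 0.50 or more had −1.54, at median levels of 7.01 and 9.46. The part of level in this pattern was not tested. Start peaks of the shortest quintile of transcripts had a median change of −2.08 and those of the longest quintile −2.60.

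Core promoters are shown next, 4 chosen for a TATA motif and a high level, 4 for a large decrease and Ezh2 as a fixed gene, so that the letters can be read beside the values. Since TATAAA in its usual place is rare among these promoters, its absence from the depleted ones carries no weight. Each line gives the 100 bases before the RefSeq start, read along the gene's own strand on GRCm38.p6, with TATAAA in capitals. The first 4 are the promoters of highest Pol2 level with TATAAA at 40 to 16 bases before the start. The next 4 belong to the most depleted promoters, and the last is Ezh2.
Fos, chr12:85473790-85473889, plus strand: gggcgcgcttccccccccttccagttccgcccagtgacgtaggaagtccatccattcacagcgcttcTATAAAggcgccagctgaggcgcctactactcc
Zfp36l1, chr12:80113014-80113113, minus strand: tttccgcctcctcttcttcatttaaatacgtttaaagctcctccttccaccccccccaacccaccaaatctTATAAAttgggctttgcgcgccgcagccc
Anxa1, chr19:20390672-20390771, minus strand: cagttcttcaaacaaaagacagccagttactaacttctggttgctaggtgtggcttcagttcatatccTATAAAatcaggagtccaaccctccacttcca
Ccn1, chr3:145649986-145650085, minus strand: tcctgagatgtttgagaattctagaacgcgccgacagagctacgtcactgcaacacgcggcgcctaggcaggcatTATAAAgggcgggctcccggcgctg
Fzd5, chr1:64737751-64737850, minus strand: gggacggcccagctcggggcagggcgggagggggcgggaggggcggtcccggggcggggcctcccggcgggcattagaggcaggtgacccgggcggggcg
Otud1, chr2:19657631-19657730, plus strand: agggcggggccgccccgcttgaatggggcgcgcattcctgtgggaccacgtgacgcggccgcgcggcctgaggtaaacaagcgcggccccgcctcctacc
Bzw2, chr12:36156826-36156925, minus strand: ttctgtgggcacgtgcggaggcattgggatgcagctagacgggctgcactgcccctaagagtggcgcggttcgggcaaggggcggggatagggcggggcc
Cggbp1, chr16:64851901-64852000, plus strand: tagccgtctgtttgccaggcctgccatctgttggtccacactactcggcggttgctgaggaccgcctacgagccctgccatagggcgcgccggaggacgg
Ezh2, chr6:47595031-47595130, minus strand: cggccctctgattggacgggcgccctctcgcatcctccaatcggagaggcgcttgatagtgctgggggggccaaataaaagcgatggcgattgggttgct

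Fos, a subunit of the AP-1 transcription factor, has its TATAAA starting 33 bases before the start, and its Pol2 level was 13.45 in old and 14.76 in young cells, a change of −1.31 (FDR 0.0662 in the authors' deposited table). Zfp36l1, an mRNA decay factor gene, had 11.94 in old and 13.43 in young cells. Anxa1, a phospholipid-binding protein gene, had 12.18 in old and 13.33 in young cells. At Ccn1, a matricellular gene and a standard YAP target, the level was 11.51 in old and 12.93 in young cells. By the FDR of the authors' deposited table none of these 4 was called. The 4 GC-rich promoters below them are described with the largest decreases.

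TATAAA in that place was found in 55 of 2321 genes with a start peak and a promoter sequence (2.37%), against 1.99% of all 32851 RefSeq promoters. Their median change was −1.78, against −2.44 for the other genes. Their Pol2 level was also higher, with a median of 9.31 against 8.20. In the strongest quintile of start peaks the medians were −1.66 for 27 genes with the motif and −1.81 for 436 without it, and in the next quintile −1.84 for 14 with it and −2.29 for 446 without it. Searched anywhere in the 300-base window on both strands, TATAAA was in 8.36% of the 2321 promoters and 13.6% of all RefSeq promoters, with medians of −2.03 with it and −2.47 without. The window runs from 250 bases before to 50 after the start. The other motif with a like gap was that of AP-1 (TGANTCA), in 5.13% of these promoters and 7.81% of all, with medians of −2.08 with and −2.45 without it; the median level was again higher with it, 8.69 against 8.19.

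The remaining motifs moved the median by less. The GC box (GGGCGG), found in 73.7% of these promoters and 35.7% of all, had −2.48 with and −2.31 without it, and the ETS core (CCGGAAG), found in 17.9% and 8.86%, had −2.55 with and −2.39 without it. The NRF1 motif, in 1.81% of these promoters and 0.971% of all, had −2.70 with and −2.42 without. The E-box (CACGTG), TEAD (GGAATG), CRE (TGACGTCA), TCT (CTTTTC), YY1 and heat shock motifs, also searched on both strands, had medians from −2.56 to −2.28 with the motif. The first 3 were in 10.4%, 11.4% and 5.73% of these promoters, against 7.15%, 14.7% and 1.79% of all, and the others in 417, 31 and 14 of the 2321 genes, against 21.8%, 0.633% and 0.603% of all. The CCAAT box (CCAAT), in 42.0% of these promoters and 37.4% of all, had −2.42 both with and without. Medians over quintiles of GC content ran from −2.19 in the lowest to −2.55 in the highest, at median levels of 8.05 and 8.45. A match is a description of the letters in the window and not a binding site.

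Among promoter peaks above the median level in which neither age was at the lowest level, the largest decreases were at Fzd5, Otud1, Bzw2 and Cggbp1. Fzd5, a Wnt receptor gene, had a level of 1.42 in old and 8.47 in young cells, a change of −7.05 (FDR 7.38e-09 in the authors' deposited table). Otud1, a deubiquitinase gene, had 2.43 in old and 8.79 in young cells (FDR 0.000191 in the authors' deposited table). For Bzw2, a regulator of start codon choice in translation, the levels were 2.43 in old and 8.67 in young cells, and for Cggbp1, which encodes a CGG-repeat-binding protein, 2.65 in old and 8.58 in young cells. Both were called lower in the authors' deposited table, with FDRs of 0.000317 and 0.00242. Their high young levels and low old levels follow from choosing the largest decreases among peaks with a mean level above 7.42.

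The next in order were Bbc3, Rela, Slc25a33, Atp2b1, Acap2, Ssc4d, Slc25a28 and Sik2, with changes from −5.72 to −4.91, each called lower in the authors' deposited table. Bbc3 encodes the pro-apoptotic protein PUMA. The large decrease was in 1 of its 3 promoter peaks, with a level of 2.93 in old and 8.65 in young cells, while the neighbouring peaks changed by −1.60 and −1.65. Rela, the p65 subunit of NF-κB, had 2.85 in old and 8.45 in young cells, a change of −5.60 (FDR 0.00335 in the authors' deposited table). Ezh2, the methyltransferase that writes H3K27me3, was at 3.37 in old and 8.23 in young cells, a change of −4.86 (FDR 0.0152 in the authors' deposited table). Itga6, the α6 integrin by which the cells were sorted, was at 4.59 in old and 8.85 in young cells over its promoter, a change of −4.26 (FDR 2.37e-06 in the authors' deposited table), and at 5.40 in old and 6.83 in young cells over an intron peak that was not called.

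A further 48 promoter peaks were at the lowest level in old cells and above it in young cells. By their young level the leading ones, named after their values were seen, were Dyrk2, a kinase gene, at 9.40, Arhgap35, which encodes a GTPase-activating protein, at 8.66, Gys1, the muscle-type glycogen synthase, at 8.22 and Tspan9, a tetraspanin gene, at 8.12. Arid1a, a subunit of the SWI/SNF chromatin remodeller, was at 7.77 in young cells. In old cells each stood at the table's lowest value of −0.18.

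At the other end, the promoter peaks with the smallest decrease mostly lay beside a start and not over it. Wsb1, which encodes a ubiquitin ligase adaptor, led with a peak of 7.92 in old and 7.60 in young cells, a change of 0.32, whereas its start peak had 9.54 in old and 11.07 in young cells (FDR 0.0358 in the authors' deposited table). Tra2b, a splicing activator and paralogue of Tra2a, had a peak of 12275 bp with a level of 11.13 at both ages and a start peak of 10.00 in old and 11.50 in young cells (FDR 0.0456 in the authors' deposited table). Ccnl1, a cyclin linked to splicing, had 10.38 in old and 10.23 in young cells downstream and 10.69 in old and 11.86 in young cells over its start. In each of these genes the strongest start-side peak stood lower in old cells, at −1.53 for Wsb1, −1.50 for Tra2b and −1.17 for Ccnl1.

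The same held for Pabpc1, the cytoplasmic poly(A)-binding protein, for Ppp2ca, the catalytic subunit of PP2A, and for Eif4g2, a translation initiation factor. Pabpc1 changed by 0.18 over an internal peak of 1909 bp and by −1.87 over its outermost peak (8.46 in old and 10.33 in young cells). Ppp2ca changed by −0.05 over an internal peak and by −1.86 over the start (FDR 0.0178 in the authors' deposited table). Eif4g2 had 2 internal promoter peaks at −0.09 and 0.17 and a first peak of 10.05 in old and 11.31 in young cells. Others named by this rule were Sfi1 (0.10 and 0.01), Srrm2, Rpl24 (0.02 over a downstream peak, −1.14 over the start) and Azin1 (−0.09 over an internal peak, −1.23 over its widest).

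The 10 strongest promoter peaks with a symbol included those of the immediate early genes Fosb, Atf3 and Fos. Fosb, an AP-1 subunit, had 14.47 in old and 15.70 in young cells, a change of −1.23 (FDR 0.0341 in the authors' deposited table). Atf3, a stress-induced transcription factor, had 14.76 in old and 15.60 in young cells and was not called (FDR 0.456 in the authors' deposited table). Slc6a6, the taurine transporter, had 13.99 in old and 15.64 in young cells over a peak of 78021 bp, the largest decrease of the 10 strongest (FDR 0.00442 in the authors' deposited table). Iffo2, an intermediate filament family gene, was also called lower, with 13.28 in old and 14.75 in young cells. Col17a1, the hemidesmosomal collagen that anchors these stem cells, had 13.31 in old and 14.52 in young cells, and Dsp, desmoplakin, had 13.47 in old and 14.41 in young cells. Lmna, the nuclear lamin A/C gene, had 13.49 in old and 14.16 in young cells, a change of −0.67, and none of these last 3 was called in the authors' deposited table. Fos, the peak named for Mir27a (13.49 in old and 14.48 in young cells) and Aopep (13.22 in old and 14.51 in young cells) complete the 10, all of which stood above the median peak. The rule took only promoters with a symbol in the table, and a peak of like level, 14.51 in old and 15.54 in young cells, was named Frmd8os from the Ensembl table. That peak covers the RefSeq interval of Neat1, the RNA that builds paraspeckles.

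Genes were next grouped by function, with 1 value per gene, the mean change over its promoter peaks. The 3320 genes with a promoter peak had a median of −2.36 (quartiles −2.89 and −1.89), and 2871 (86.5%) had at least 1 promoter peak called lower in the authors' deposited table. Because promoters as a class changed by more than the median peak, each list is set below against both −1.72 and −2.36. The lists were chosen with earlier results of these data known and carry no test.

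**Figure D4:**
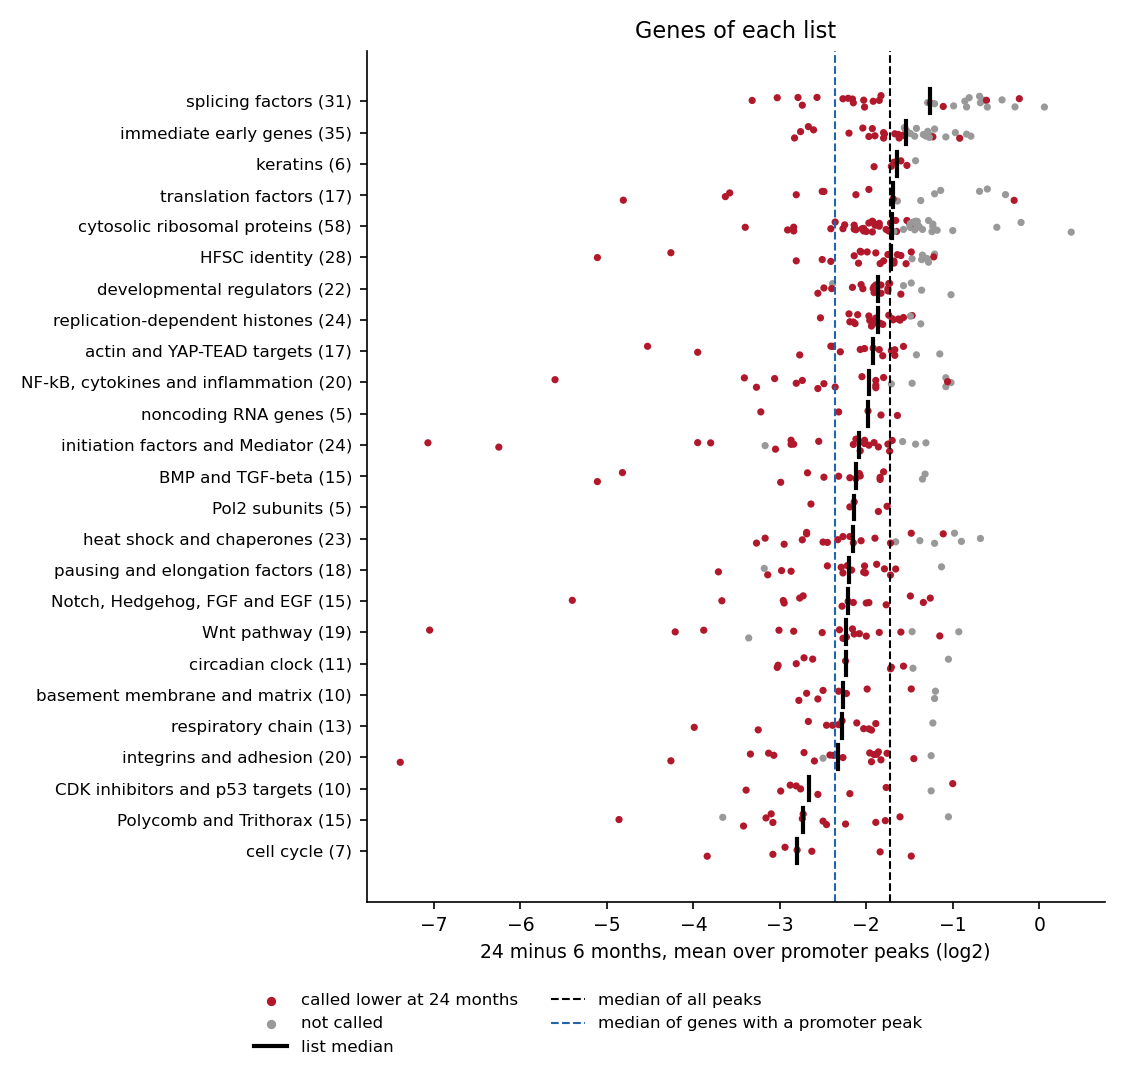
Change of Pol2 signal (24 minus 6 months, log2, mean over a gene's promoter peaks) for each gene of the 25 lists with at least 5 such genes, ordered by list median (black bar; number of genes in brackets); red genes were called lower. Dashed lines give the median of all peaks (−1.72, black) and of all genes with a promoter peak (−2.36, blue); by this average splicing factors lie farthest right and cell cycle genes farthest left.

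Averaged over a gene's promoter peaks, splicing factors had the highest list median. For the 31 of 45 with a promoter peak the median was −1.26, above −1.72 and above −2.36, and 18 (58.1%) were called lower in the authors' deposited table, against 86.5% of all genes. Rbm39 (0.06) and Tra2b (−0.23) were at the top, partly through the internal peaks described above, and Snrpd3 (−3.32), a core protein of the spliceosomal snRNPs, and Srsf10 (−3.03), an SR protein, were at the bottom. This position did not hold in some other settings. Over start peaks alone the median of 29 splicing factor genes was −1.83, against −2.43 over all 2321 genes, a value of −0.11 relative to the median peak. There 29 immediate early genes stood at 0.18 and keratins, with only 2 genes, at 0.15 relative to the median peak. With only the strongest promoter peak of each gene splicing factors were again at −0.11, with immediate early genes at 0.18 and keratins at 0.08. Translation factors were at −1.69 for 17 of 45 genes with 10 (58.8%) called, spread from Eif6 (−4.81) and Eif3d (−3.63) to Eif4g2 (−0.39) and Pabpc1 (−0.29).

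Cytosolic ribosomal protein genes had a median of −1.70 for 58 of 79 genes, with 35 (60.3%) called lower in the authors' deposited table and 52 above −2.36. Rps19 (−3.40) and Rps25 (−2.91) were lowest, and Rpl9 (−0.21) and Rpl23 (0.37) highest, the last 2 not called. Many ribosomal protein genes have near-identical pseudogene copies, and the labels and headers do not say how shared reads were placed, so single values in this family are uncertain. Replication-dependent histone genes, whose copies also resemble each other, were at −1.87 for 24 of 65, and 22 (91.7%) were called. The share called among all genes with a promoter peak was 86.5%.

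Immediate early genes, which respond within minutes to stimuli and to tissue handling, had a median of −1.54 for 35 of 39 genes, with 19 (54.3%) called lower in the authors' deposited table. Klf10 (−2.83) and Gadd45a (−2.76) were lowest, and Atf3 (−0.84) and Nr4a1 (−0.79), an orphan nuclear receptor gene, highest and not called. Jun had 12.33 in old and 14.23 in young cells (FDR 0.0146 in the authors' deposited table), a larger decrease than Fos or Egr1 (12.73 in old and 14.05 in young cells). Their median level of 11.20 was well above the 8.12 of all genes. Set against the peaks nearest in level, the immediate early genes had a median of −0.06, while splicing factors had 0.24, ribosomal protein genes 0.31 and all genes with a promoter peak −0.30.

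Follicle stem cell identity genes had a median of −1.71 for 28 of 37, with 21 (75.0%) called lower in the authors' deposited table, against 86.5% of all genes. Their median level was 10.29, against 8.12 for all genes. Set against the peaks nearest in level, the identity genes had a median of −0.07 and all genes −0.30. Bmp6, a ligand that holds the cells quiescent, and Itga6 were far below the rest at −5.11 and −4.26. Cd34, the sorting marker, had 8.85 in old and 10.45 in young cells (FDR 0.0344 in the authors' deposited table). Sox9 had 9.43 in old and 11.52 in young cells (FDR 0.0101 in the authors' deposited table), and Lhx2, with 11.45 in old and 12.81 in young cells, was not called. Nfatc1 had 10.97 in old and 12.30 in young cells over its promoter peak and −0.88 over its widest peak, 36564 bp within the gene, neither of them called in the authors' deposited table, while a peak in its 3′ UTR was (7.86 in old and 9.56 in young cells). Foxp1 (−1.22, a mean over 4 promoter peaks) and Col17a1 (−1.21) had the smallest decreases. Over its start, however, Foxp1 changed by −2.32, with 7.60 in old and 9.92 in young cells. Among keratins, 6 of 49 had a promoter peak, from −1.91 for Krt6a to −1.43 for Krt17. The median level of these keratins was 10.84, and their median against the peaks nearest in level was −0.04. Krt5 had 10.53 in old and 12.06 in young cells, Krt14 10.42 in old and 12.02 in young cells, and Krt15, the bulge keratin, 10.80 in old and 12.48 in young cells, all 3 called lower in the authors' deposited table.

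The 3 lists of the transcription machinery had medians below the median peak but above the −2.36 of all genes with a promoter peak. Single housekeeping and polymerase genes come first. Gapdh had 9.21 in old and 10.95 in young cells, Polr2a, the largest Pol2 subunit, had 10.55 in old and 12.31 in young cells, and Actb had 11.07 in old and 12.22 in young cells. Gapdh and Polr2a lay close to the median peak and were called lower in the authors' deposited table, while Actb lay 0.57 above it and was not called. The 5 of 13 Pol2 subunit genes with a promoter peak had a median of −2.14, all of them below the median peak and all called in the authors' deposited table. Of all genes with a promoter peak, only 18.4% lay above the median peak and 86.5% were called lower. Pausing and elongation factors were at −2.20 for 18 of 37 (16, 88.9%, called), from Cdk13 (−3.71) and Ell3 (−3.18) to Ell (−1.66) and Brd2 (−1.13). Initiation factors and Mediator were at −2.09 for 24 of 61, with 20 (83.3%) called in the authors' deposited table.

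By the same average, the lowest list medians were those of cell cycle genes, Polycomb and Trithorax genes, and CDK inhibitors with p53 targets. Cell cycle genes had a median of −2.80 for 7 of 39, all called lower in the authors' deposited table, with Ccna2 (−3.84), the S-phase cyclin, and Ccnd2 (−3.08) lowest and Rb1 (−1.84) and Pcna (−1.48) highest. Polycomb and Trithorax genes had −2.73 for 15 of 46 with 13 (86.7%) called, with Ezh2 (−4.86) and Rbbp4 (−3.66), a histone-binding partner of EZH2, at one end and Kdm6b (−1.05), an H3K27 demethylase, at the other. CDK inhibitors and p53 targets had −2.66 for 10 of 24 with 9 (90.0%) called, from Sesn2 (−3.39) and Bbc3 (−2.99) to Btg2 (−1.25) and Cdkn1a, the p21 gene. Of all genes with a promoter peak 86.5% were called lower, so the shares called in these small lists were near that of all genes. Median levels of these lists, 7.92, 7.75 and 8.91, bracketed that of all genes.

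Signalling and adhesion lists were wide, with medians from −2.33 to −1.92, against −2.36 for all genes with a promoter peak. Of all those genes 86.5% were called lower. Integrins and adhesion genes had −2.33 for 20 of 37 (18, 90.0%, called in the authors' deposited table), from Ptk2, focal adhesion kinase, at the lowest level in old cells and 7.21 in young cells, and Itga6 to Tns1 (−1.45) and Dst (−1.25). Wnt pathway genes had −2.23 for 19 of 60, with Fzd5 (−7.05) and Tle1 (−4.21), a corepressor, at one end and Ctnnb1 (−1.15), β-catenin, and Dvl2 (−0.93) at the other. Notch, Hedgehog, FGF and EGF genes had −2.21 for 15 of 52, all called, from Spry1 (−5.40), a feedback inhibitor, to Hes1 (−1.34) and Fgfr1 (−1.26). Over start peaks alone, 10 genes of this list had a median of −2.75, below the −2.43 of all 2321 genes. BMP and TGF-β genes had −2.12 for 15 of 43, NF-κB, cytokine and inflammation genes −1.97 for 20 of 45, and actin and YAP-TEAD targets −1.92 for 17 of 37. In the last list Tead1 (−4.53) and Tead4 (−3.95), genes of the TEAD factors, were lowest, and Ccn1 (−1.42) and Actb (−1.15), a YAP target and an actin gene, were highest and not called. Heat shock and chaperone genes had −2.15 for 23 of 32, circadian clock genes −2.24 for 11 of 19, respiratory chain genes −2.28 for 13 of 75 and basement membrane and matrix genes −2.27 for 10 of 41.

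Lists of other cell types and of differentiated cells had few promoter peaks. There were none for 15 fibroblast and 10 melanocyte genes, 1 of 22 on the immune list (Epcam, an epithelial adhesion gene listed there as a marker of Langerhans cells), 1 of 20 for hair shaft and inner root sheath (Gata3), 2 of 16 for the sebaceous gland (Fasn and Dgat2) and 3 of 31 for epidermal differentiation. Developmental regulators had 22 of 151, at a median of −1.86. The noncoding RNA genes had 5 of 26, all called lower in the authors' deposited table (86.5% of all genes were), at a median of −1.98. The RefSeq interval of Malat1, a nuclear long noncoding RNA, was covered by 1 peak that the table gives no symbol, with 12.48 in old and 13.59 in young cells, a change of −1.11 (FDR 0.18 in the authors' deposited table, not called). None of the 7 peaks annotated to Malat1 lies over that interval, and Sox21 had no peak under its name.

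H3K4me3 was set beside Pol2 at the promoters. Of the 3743 promoter peaks, 3448 overlapped an H3K4me3 region. There Pol2 had a median change of −2.35 and H3K4me3 one of −1.45, each on its own table's scale. The interquartile range was 1.01 for Pol2 and 0.23 for H3K4me3. Across these promoters the changes of the 2 assays had a Spearman correlation of 0.23 and a Pearson correlation of 0.27, given as a description with no test, since neighbouring peaks share cells and annotation. By quartile of H3K4me3 change, from most to least lowered, the Pol2 median was −2.52, −2.44, −2.31 and −2.07. The 295 promoter peaks outside any H3K4me3 region had a median Pol2 change of −0.48, and 26 (8.81%) were called lower in the authors' deposited table. Of the 3448 over such a region, 85.1% were called. The 295 were also weaker, with a median Pol2 level of 6.64 against 8.10. How each table was scaled is not stated in the headers, so the 2 medians are given side by side and not as amounts.

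**Figure D5:**
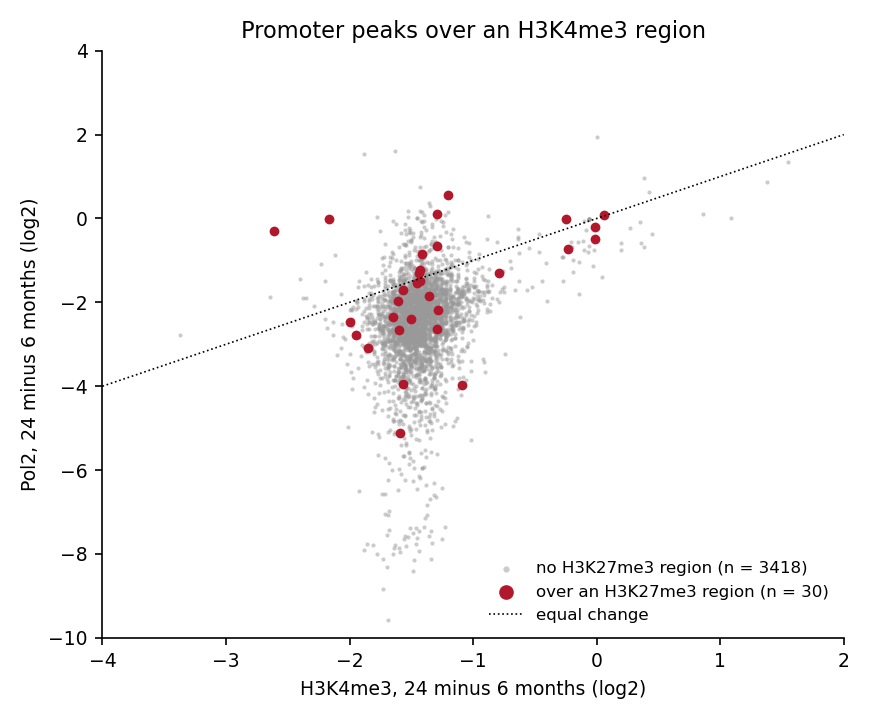
Change of Pol2 (24 minus 6 months, log2) against the change of H3K4me3 (same scale) for promoter peaks over an H3K4me3 region; red points also overlap an H3K27me3 region, and 3 peaks lie outside the axes. The medians are −1.45 for H3K4me3 and −2.35 for Pol2; how each table was scaled is not stated, so distance from the dotted line of equal change is not a comparison of amounts.

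Few Pol2 promoter peaks overlapped an H3K27me3 region by 1 bp or more. There were 33, of which 30 also overlapped H3K4me3, with a median change of −1.49 against −2.28 for the other 3710. Of the 33, 15 (45.5%) were called lower in the authors' deposited table, against 79.4% of the other 3710. The 33 included repeat-like loci, the mitochondrial genome and 3 peaks in which an age was at the lowest level. Without these the median of the remaining 25 was −1.85, and 14 (56.0%) were called lower. Nr4a2, an orphan nuclear receptor gene, had 8.38 in old and 9.04 in young cells over its wider peak, and Cdkn1a had 9.70 in old and 10.23 in young cells over the overlapping peak, and neither was called in the authors' deposited table. Epha2, an ephrin receptor gene (9.14 in old and 10.99 in young cells), Bmp6 (2.85 in old and 7.96 in young cells) and Egr2 (5.94 in old and 8.61 in young cells) were called lower in the authors' deposited table. The overlap was often a small part of the peak. It was 281 of 4537 bp at Epha2, 335 of 1144 bp at Bmp6 and 303 of 1724 bp at Egr2. At Cdkn1a it was 600 of 4481 bp, and at Nr4a2 1708 of 2604 bp. These examples were chosen after their values were seen.

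The RNA table of the series lists 597 genes with an adjusted p up to 0.1, of which 175 had a Pol2 promoter peak, matched by gene ID. The Pol2 change was negative at the median in each RNA class. For the 90 with higher RNA in old cells (adjusted p under 0.05) the median Pol2 change was −2.05 and for the 16 with lower RNA it was also −2.05, against −2.36 for all genes with a promoter peak. Ribosomal protein genes made up 32 of the 90, with −1.70, and the other 58 had −2.40. Across the 175 genes the RNA and Pol2 changes had a Spearman correlation of −0.06, a description only. RNA and chromatin directions follow the headers of separate tables.

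Values of single genes are given side by side; as most Pol2 peaks were lower in old cells, an opposite sign is common and is no result by itself. Hsph1, an HSP110 chaperone gene, had a Pol2 change of −3.27, while its RNA was 0.87 higher on the log2 scale in old cells (adjusted p 4.3e-07 in the authors' deposited table). Rps25 had a Pol2 level of 5.50 in old and 8.41 in young cells and RNA 0.67 higher (adjusted p 0.00016027 in the authors' deposited table). Peg3, an imprinted zinc finger gene, had 5.87 in old and 7.74 in young cells and RNA 1.38 higher, with an adjusted p listed as 0 in the authors' deposited table. Epha4, an ephrin receptor gene, had 5.10 in old and 9.06 in young cells and RNA 0.63 higher. Phf1, a Polycomb-associated gene, was lower in both, with 5.56 in old and 8.64 in young cells for Pol2 and an RNA change of −0.63 in the authors' deposited table. These 5 were chosen after their values were seen.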

How the data were processed

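The submitters' processing notes name BWA 0.7.15, MACS2 2.2.7.1, DiffBind 2.14.0 and the GRCm38 build, without their settings or the scaling of the levels. Per the file headers, the deposited ChIP-seq tables hold log2 group levels, their log2 difference (young minus old), a p-value and an FDR, written with decimal commas and read as a plain score before conversion. The RNA table of the authors holds a log2 fold change (old over young), its standard error and p-values. Changes were computed as old level minus young level, which is the authors' difference with its sign turned, to within 0.01.

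No test was run, since no value per sample is given. Genes took the table's symbol, or for 900 of 1009 peaks without one the Ensembl symbol. Start peaks hold a RefSeq start (GRCm38.p6) of their gene. Regions overlapped when they shared at least 1 bp. Level-centred changes subtract the median of the peaks nearest in level. The level centring and the overlap of regions were tested on simulated data. Members and lists were chosen with earlier results of these data known.

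Named genes were, among promoter peaks with a symbol in the table, above the median level and with neither age at the lowest level, the 12 genes with the lowest and the 12 with the highest change, the 10 genes of highest level, the 2 at each end of each list, and a fixed set of markers and reference genes; others are said to be chosen after their values were seen. A few genes that the rule names are not reported here. Python 3.11.15, pandas 2.3.3 and matplotlib 3.10.9 were used.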

Additional observations from a re-analysis of the deposited data

How the results depend on the processing

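The number of peaks called lower depended on the FDR threshold: it was 3589 at 0.05, 2192 at 0.01 and 4046 at 0.1. Peaks called higher numbered 3 at 0.05, 6 at 0.1 and 0 among promoter peaks. The median change was −1.72 over all peaks and between −2.28 (promoter peaks) and −1.45 (ratio of summed levels) in the alternatives. Of 25 lists, 6 had a median above that of all peaks; there were 2 when a gene took its strongest promoter peak, 20 when the centre was the promoter median and 2 over start peaks, a choice made after seeing the data. Measured against all genes with a promoter peak, splicing factors, ribosomal protein genes, translation factors, immediate early and stem cell identity genes lay above the median in all 8 settings. So did keratins, replication-dependent histones, developmental regulators, actin and YAP-TEAD targets, and NF-κB, heat shock, pausing, Wnt and clock genes. A place above that median was thus common among the lists. Cell cycle, Polycomb and Trithorax, and CDK inhibitor genes lay below it in all 8. For the CDK inhibitor list the difference was only −0.02 when a gene took its strongest promoter peak, and the cell cycle list holds only 7 genes. The gap between promoter peaks that overlap H3K27me3 and those that do not was 0.79. It became 0.40 after centring on level and 0.43 without repeat loci. When 50% of the Pol2 peak had to overlap it was 1.78, but that setting keeps repeat-like loci, the mitochondrial peak and lowest-level peaks. Within genes, the median difference between gene body and start peaks, 1.35, was between 0.90 and 1.43 in the other within-gene settings. The gap between promoters with and without TATAAA was 0.44 anywhere in the window, 0.26 there after centring on level and 0.66 in its usual place, where the level-centred medians were −0.11 with and −0.34 without it. Splicing factors were above the median peak in the main setting (0.46) and below it over the strongest promoter peak and over start peaks (−0.11 in both). The level-centred, repeat-free, start-peak, RNA and gene body settings were chosen after seeing the data. No paired analysis was possible because the table holds 1 level per age, and for the same reason no replicate could be left out. Depth is unknown.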
